A study of Homo sapiens with 12 samples.

Results

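The 41 genes described here act in mitosis or build the centromere and kinetochore. They were chosen by name, not by their values, and all 41 were among the 4918 genes analysed, whose symbols run in alphabetical order from A1BG to FAM46B. Mitotic genes with later symbols (the kinesins, PLK1, NDC80 or TTK, for example) were not analysed here. The study sequenced RNA from A375, an established human melanoma cell line, to follow how SB-3CT, an inhibitor of the gelatinases MMP2 and MMP9, acts on cells with and without interferon gamma (IFN-γ), a T-cell cytokine. There were 12 samples in 4 groups of 3, namely control cells labelled as untreated, cells given SB-3CT, cells given IFN-γ, and cells given SB-3CT together with IFN-γ, each for 24 h. All 4 groups are the same cell line, and the labels give no doses and do not say whether the 3 samples of a group were separate cultures, so p-values measure the spread between these samples, which may be technical.

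In G2 and mitosis a cell condenses its chromosomes, attaches them through kinetochores to spindle microtubules, holds anaphase back until every kinetochore is attached, and then divides by pinching the cortex between the separated chromosomes. Many of these genes are read little early in the cell cycle and rise together in late S and G2. Their promoters often carry a CCAAT box and, close to the start of transcription, a cell cycle genes homology region (CHR), the element through which the DREAM complex represses them in resting cells and the MYB-MuvB and FOXM1 complexes activate them in dividing cells. The amounts of such transcripts therefore depend on how many cells of a culture are in G2 and mitosis as well as on how strongly each gene is read. In bulk RNA fewer mitotic cells and less mitotic RNA per cell cannot be told apart.

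The promoter table (RefSeq, GRCh38.p14) held 32 of the 41 genes. A CHR element (TTTGAA or TTCGAA, searched on both strands, so that TTCAAA also counts) was found within 100 bases before the start in 12 of the 32, or 37.5%, against 6.14% of 27305 genes in the table and 4.91% of the 2361 measured genes whose mean FPKM reached 1. Within 250 bases the shares were 53.1% of these genes and 17.2% of all. A CCAAT box (CCAAT or its reverse complement ATTGG) was found within 250 bases in 71.9%, against 37% of all genes in the table. Shown here are the 100 bases before the start for 7 genes with a CHR element near the start that behaved differently under treatment. CKS1B and CKS2 were higher with SB-3CT and IFN-γ than with IFN-γ alone, CDC20 and CENPA did not pass the test in that comparison, and ANLN, BUB1B and ESPL1 were lower. Each reads 5′ to 3′ on the strand of the gene, which is the plus strand for all 7, and capitals mark the CHR element.
CKS1B (chr1:154974581-154974680): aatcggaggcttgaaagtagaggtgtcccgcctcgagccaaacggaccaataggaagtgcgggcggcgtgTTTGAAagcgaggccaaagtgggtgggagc
CKS2 (chr9:89311095-89311194): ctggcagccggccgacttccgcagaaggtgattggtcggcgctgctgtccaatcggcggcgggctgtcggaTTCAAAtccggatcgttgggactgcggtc
CDC20 (chr1:43358881-43358980): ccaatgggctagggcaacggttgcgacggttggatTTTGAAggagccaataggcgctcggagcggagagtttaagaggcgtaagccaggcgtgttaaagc
CENPA (chr2:26785956-26786055): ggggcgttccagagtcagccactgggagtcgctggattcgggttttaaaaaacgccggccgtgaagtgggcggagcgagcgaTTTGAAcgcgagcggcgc
ANLN (chr7:36389762-36389861): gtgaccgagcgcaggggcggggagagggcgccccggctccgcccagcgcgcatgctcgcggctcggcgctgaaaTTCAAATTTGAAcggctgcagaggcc
BUB1B (chr15:40160969-40161068): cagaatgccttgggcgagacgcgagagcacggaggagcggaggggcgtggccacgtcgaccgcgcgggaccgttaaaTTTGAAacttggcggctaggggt
ESPL1 (chr12:53268199-53268298): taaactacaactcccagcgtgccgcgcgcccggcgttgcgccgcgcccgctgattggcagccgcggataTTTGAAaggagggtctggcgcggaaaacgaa
The element began 30 bases before the start in CKS1B, 29 in CKS2, 65 in CDC20, 18 in CENPA, 23 in BUB1B and 31 in ESPL1, and ANLN held 2 adjoining elements, at 26 and 20 bases. For CDC20 alone, the bases read just after this start were not found in the gene's annotated transcripts, so its distance is less certain. Genes that rose, fell or did not pass the test shared the same letters. Of the matched genes, 2 of 3 that were higher with SB-3CT and IFN-γ, 6 of 17 that were lower and 4 of 12 that were not called held a CHR element within 100 bases of the start. A match is a description of the letters and was not tested for binding.

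Values are FPKM, a level per transcript length (the fragments assigned to a gene divided by its transcript length and by the mapped fragments of the sample), and changes are differences of mean log2(FPKM + 1), a scale on which changes of weakly expressed genes look smaller. A change was called where limma gave a p-value under 0.05 after Benjamini-Hochberg adjustment over the 4918 genes. Between 3 samples and 3 an exact permutation test of a single gene cannot give a p-value below 0.1, so calls rest on the fit across all genes. All 41 genes were above 0 in all 12 samples, with mean FPKM from 1.3 (CENPI) to 626 (CKS2) and a median of 15.3, above 75.7% of the genes analysed. For this reason, 3029 genes within that range of mean FPKM are given beside all genes where shares are compared.

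The IFN-γ groups carried the cytokine's response. CXCL10, an IFN-γ-induced chemokine gene, lay between 0 and 0.05 FPKM in the 6 samples without IFN-γ and between 78.7 and 122 FPKM in the 6 with it. Of 8 melanoma markers, CSPG4, ERBB3 and AXL were well expressed, EDNRB and BCL2A1 were low, and DCT, CAPN3 and ABCB5 were near 0, with means of 0.154 FPKM or less. The markers of fibroblasts, T cells, endothelium and epithelium that were measured summed to at most 0.646 FPKM per list in each sample. The melanoma list summed to 112 to 118 FPKM in the samples with SB-3CT and IFN-γ and to 132 to 157 FPKM in the others. The relative depth of the samples, read from the steps in the lowest FPKM values, ranged from 87.1% to 150% of the control mean, and absolute depth is unknown. The 3 samples with SB-3CT and IFN-γ stood apart from the other 9 in ways that reach beyond these genes. Their scaling factors (the median ratio to the mean of all samples) were 0.865 to 0.874 against 0.987 to 1.09 elsewhere, and in them long transcripts were low relative to short ones, with a slope of -0.164 to -0.133 on log2 transcript length against -0.048 to 0.137 elsewhere. The share of these differences in the results below was not tested, and each count is therefore also given after other scalings, 2 of which remove the length trend.

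**Figure D1:**
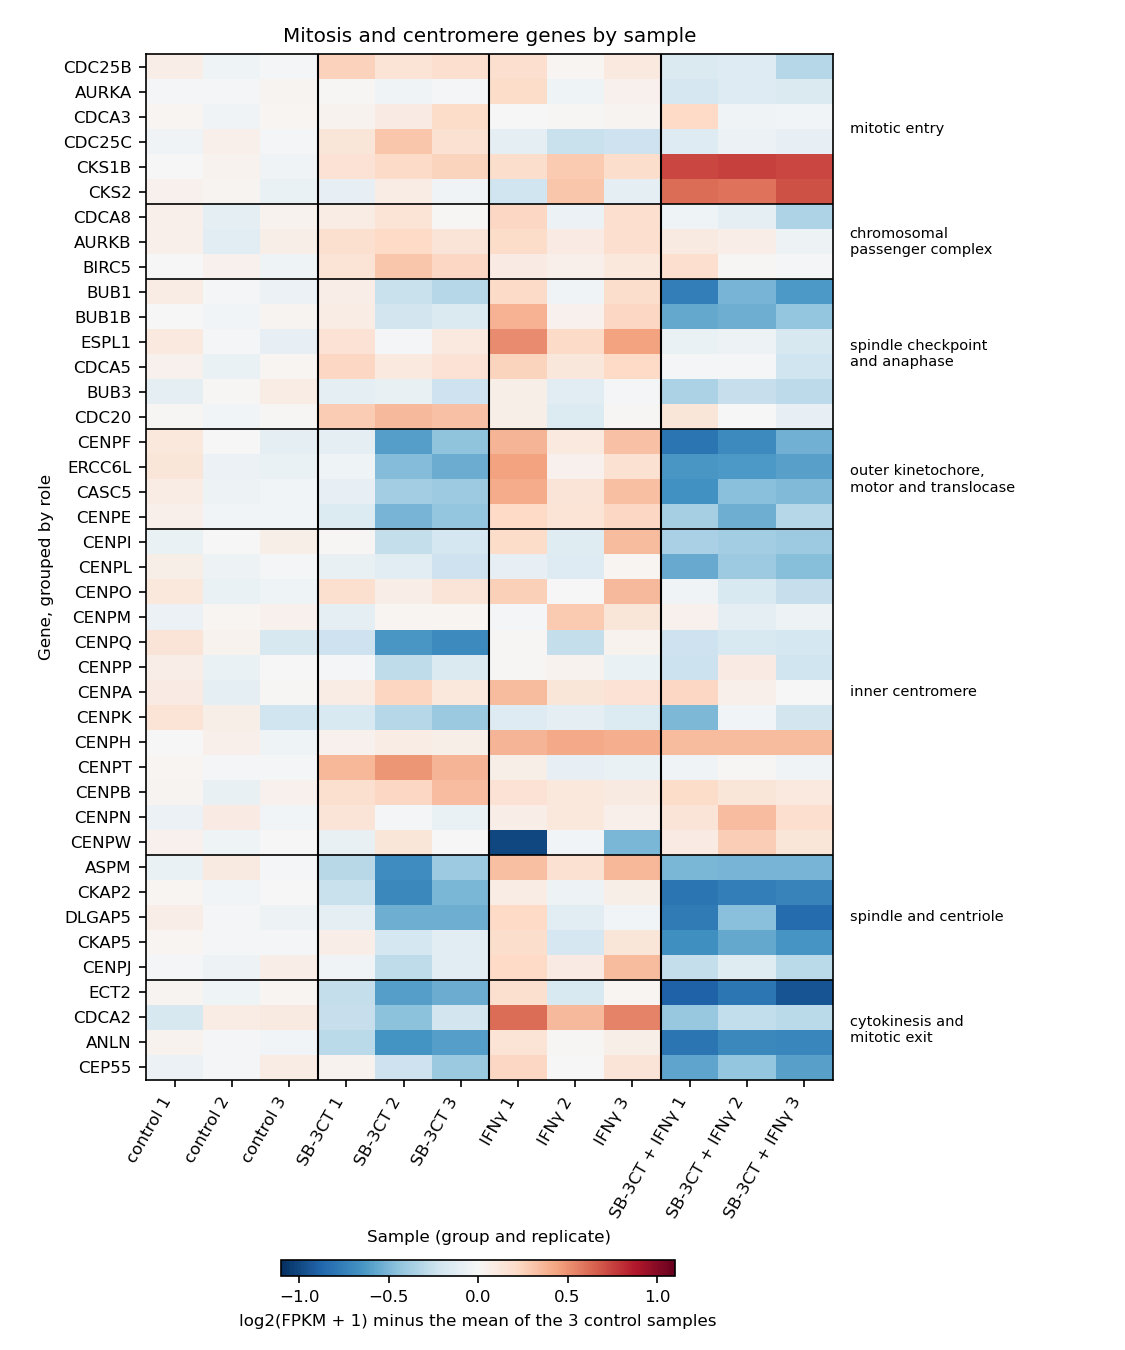
Each cell is log2(FPKM + 1) of a gene in a sample minus the mean of the 3 control samples (blue lower, red higher), with the 41 genes grouped by role and the 12 samples by group. Most genes of the spindle, outer kinetochore and cytokinesis rows are blue in the 3 samples with SB-3CT and IFN-γ, CKS1B and CKS2 are red there, and the same rows are paler in SB-3CT replicate 1 than in SB-3CT replicates 2 and 3.

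With SB-3CT and IFN-γ, 23 of the 41 genes were lower than with IFN-γ alone and 3 were higher, where 31.5% of all genes were lower and 6.41% higher. The shares for these genes were 56.1% lower and 7.32% higher, against 43.0% and 9.31% of the 3029 genes in the same range of FPKM. The median change of the 41 genes was -0.28 on the log2 scale, and that of the genes in their range was -0.20. Most of the falls lay in 4 roles, namely cytokinesis and mitotic exit (4 of 4 genes), spindle and centriole (5 of 5), outer kinetochore (4 of 4), and spindle checkpoint and anaphase (5 of 6). None of the 3 genes of the chromosomal passenger complex passed the test, and of 13 inner centromere genes 3 were lower and 1 higher. After scaling by the median ratio, which moved the median change of the genes whose mean FPKM reached 1 from -0.20 to 0.02, 17 of the 41 were lower and 11 higher, where 15.5% and 16.5% of all genes were. With each sample's length trend removed at constant summed FPKM, 13 were lower and 5 higher, against 9.09% and 8.89% of all genes. With the length trend removed and the sample medians kept, 27 were lower and 1 higher, against 34.9% and 2.44% of all genes, so the 2 ways of removing it moved the number of lower genes in opposite directions. Quantile normalization gave 16 lower and 5 higher, against 14.5% and 11.0%.

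The cytokinesis genes fell in all 5 scalings. ANLN (chromosome 7 of hg19, 36429430 to 36493400) encodes anillin, a scaffold of the contractile ring. Its FPKM was 29.1, 26.5 and 27.5 with IFN-γ and 14.6, 15.6 and 15.5 with SB-3CT and IFN-γ. The groups lay far apart relative to their spread, and the log2 change was -0.82 (SE 0.06, adjusted p = 0.00139 in limma). ECT2 (chromosome 3, 172468472 to 172539264), which activates RhoA at the cell equator, stood at 12.9, 10 and 11.5 FPKM with IFN-γ and 5.64, 6.09 and 5.37 FPKM with both agents. None of the 3 treated samples came near the lowest IFN-γ sample, and the change was -0.89 (SE 0.10, adjusted p = 0.00207). CDCA2, which recruits phosphatase PP1 to chromosomes as mitosis ends, had 7.41, 6.02 and 7.02 FPKM with IFN-γ and 3.11, 3.54 and 3.47 FPKM with both, a change of -0.83 (SE 0.10). CEP55, needed for the final abscission, had a mean of 19.1 FPKM with IFN-γ and 11.7 FPKM with both, a change of -0.66 (SE 0.08).

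The outer kinetochore, motor and translocase genes gave the largest fall of the 41. CENPF (chromosome 1, 214776528 to 214837917), a large protein of the kinetochore corona that accumulates in G2, had 11.1, 9.06 and 10.7 FPKM with IFN-γ and 4.36, 4.74 and 5.47 FPKM with both agents. The highest treated sample was below the lowest IFN-γ sample, and the change was -0.95 (SE 0.10, adjusted p = 0.00207). ERCC6L (chromosome X, 71424507 to 71458877), the DNA translocase PICH that coats the threads linking anaphase chromosomes, had 4.15, 2.91 and 3.27 FPKM with IFN-γ and 1.43, 1.45 and 1.51 FPKM with both. The 3 treated samples were nearly alike, and the change was -0.84 (SE 0.11). CASC5, now named KNL1, the kinetochore platform for the checkpoint kinases, had 4.24, 3.34 and 3.95 FPKM with IFN-γ and 1.48, 1.86 and 1.82 FPKM with both. Again the groups did not overlap, and the change was -0.83 (SE 0.11). CENPE, the kinetochore kinesin that carries chromosomes to the spindle equator, had 2.35, 2.19 and 2.37 FPKM with IFN-γ and 1.23, 0.983 and 1.31 FPKM with both, a change of -0.60 (SE 0.09), which was not called once the length trend was removed at constant summed FPKM (-0.26, adjusted p = 0.0794).

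Among the 5 spindle and centriole genes, ASPM, which focuses spindle poles, had 5.04, 4.38 and 5.16 FPKM with IFN-γ and 2.38, 2.36 and 2.36 FPKM with both, with no overlap and a change of -0.80 (SE 0.09). CKAP2, a microtubule-nucleating protein, fell by 0.80 (SE 0.06), and DLGAP5, which stabilises the fibres at kinetochores, fell by 0.72 (SE 0.13). Those 3 were lower in all 5 scalings. CKAP5, a microtubule polymerase, changed by -0.68 (SE 0.10) and CENPJ, which sets centriole length, by -0.45 (SE 0.10). With the length trend removed at constant summed FPKM, CKAP5 changed by -0.19 (adjusted p = 0.0751) and CENPJ by -0.15 (adjusted p = 0.237), and CENPJ was also not called after quantile normalization.

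The checkpoint and anaphase genes were uneven. BUB1, a checkpoint kinase, had 10.1, 8.36 and 10 FPKM with IFN-γ and 4.69, 5.73 and 5.19 FPKM with both, a change of -0.76 (SE 0.10). BUB1B, which encodes BUBR1, the inhibitor that holds back the anaphase-promoting complex, changed by -0.73 (SE 0.10). ESPL1 encodes separase, the protease that cuts cohesin at anaphase, and had 10.1, 7.96 and 9.58 FPKM with IFN-γ and 6.39, 6.47 and 5.87 FPKM with both, a change of -0.49 (SE 0.10). In each of these 3 genes the treated samples lay below all IFN-γ samples. Unlike BUB1 and BUB1B, ESPL1 was not called after quantile normalization (-0.22, adjusted p = 0.0515) or with the length trend removed at constant summed FPKM (-0.05, adjusted p = 0.685). The falls of CDCA5 (sororin, a protector of cohesin), at -0.28, and of BUB3 (the partner of BUB1 and BUBR1), at -0.27, were smaller and were called lower in 2 of the 5 scalings each. Median-ratio scaling left them at -0.03 and -0.02, and BUB3 turned to 0.26 when the length trend was removed at constant summed FPKM. CDC20, the activator of the anaphase-promoting complex and the target of the checkpoint, had 119, 102 and 115 FPKM with IFN-γ and 125, 114 and 107 FPKM with both. The groups overlapped, and the change of 0.05 had a 95% interval of -0.14 to 0.23, but it was 0.30 after scaling by the median ratio (adjusted p = 0.0140).

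The mitotic entry genes moved in both directions. CKS1B (chromosome 1, 154947129 to 154951727) and CKS2 (chromosome 9, 91926110 to 91931618) encode small proteins that bind cyclin-dependent kinases and help them reach their substrates. CKS1B had 296, 316 and 296 FPKM with IFN-γ and 430, 437 and 432 FPKM with both agents. All 3 treated samples lay above all others in the series, and the change was 0.52 (SE 0.05, adjusted p = 0.00207), a ratio of mean FPKM of 1.43. CKS2 had 473, 677 and 513 FPKM with IFN-γ, where replicate 2 stood well above the others, and 844, 833 and 894 FPKM with both. The change was 0.64 (SE 0.13, adjusted p = 0.00762), and without IFN-γ replicate 3 it was 0.60 with an adjusted p of 0.0502. With the length trend removed and the sample medians kept, the changes of CKS1B and CKS2 were -0.02 and 0.02. CKS1B was called higher in 4 of the 5 scalings and CKS2 in 3. Processed copies of CKS1B exist elsewhere in the genome, and how reads were shared with them is not given in the sources used here.

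AURKA, the kinase of spindle poles and mitotic entry, had 57.8, 48.4 and 51.8 FPKM with IFN-γ and 44, 45.3 and 44.6 FPKM with both. Its change of -0.23 (SE 0.07, adjusted p = 0.0350) was 0.02 after scaling by the median ratio. With the length trend removed and the sample medians kept it was -0.39 (adjusted p = 0.00942). CDC25B, a phosphatase that activates CDK1, changed by -0.31 (SE 0.07). That change was -0.06 after scaling by the median ratio (adjusted p = 0.436). It was -0.04 with the length trend removed at constant summed FPKM (adjusted p = 0.642), but -0.31 with the sample medians kept (adjusted p = 0.00869). CDC25C, another such phosphatase, and CDCA3, which promotes the loss of the CDK1 inhibitor WEE1, did not pass the test, at 0.10 and 0.04. CDC25C was called higher with median-ratio scaling (0.31) and with quantile normalization (0.40). CDCA3 was called higher with median-ratio scaling (0.28) but lower with the length trend removed and the sample medians kept (-0.35).

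In the chromosomal passenger complex, the Aurora B module that corrects faulty attachments, the groups overlapped for all 3 genes measured. AURKB, the kinase, had 66, 61.1 and 65.2 FPKM with IFN-γ and 61.7, 60.4 and 55.3 FPKM with both. Its change was -0.11 (95% interval -0.26 to 0.03). With the length trend removed and the sample medians kept it was -0.48 (adjusted p = 0.00504), and the other scalings gave no call. BIRC5, which encodes survivin, had 45.7, 44.5 and 46.5 FPKM with IFN-γ and 48.7, 43.1 and 42.1 FPKM with both. Its change was -0.03 (95% interval -0.18 to 0.12). It was called higher after median-ratio scaling alone (0.22, adjusted p = 0.04). CDCA8 (borealin) changed by -0.28 (adjusted p = 0.0741), and by -0.38 (adjusted p = 0.0284) with the length trend removed and the sample medians kept.

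Of the 13 inner centromere genes, which mark and build the centromere on chromatin, most stayed within a narrow band on the deposited values. CENPA, the histone H3 variant that defines the centromere, had 23.5, 20.1 and 20.5 FPKM with IFN-γ and 21.5, 19.0 and 18.2 FPKM with both, and its change of -0.12 did not pass the test (95% interval -0.32 to 0.08), although it was -0.43 (adjusted p = 0.0143) with the length trend removed and the sample medians kept. CENPI, CENPL and CENPO, subunits of the network that sits on CENPA chromatin, fell by 0.52, 0.41 and 0.36. These falls depended on the scaling, CENPI being called in 3 of the 5, CENPL in 2 and CENPO in the deposited values alone. Quantile normalization gave -0.32 for CENPI (adjusted p = 0.0676) and -0.11 for CENPL (adjusted p = 0.316), and CENPO was at -0.03 (adjusted p = 0.858) with the length trend removed at constant summed FPKM. CENPW, a histone-fold subunit of the same network, had 24.6, 49.1 and 35 FPKM with IFN-γ and 53.3, 60.6 and 55.2 FPKM with both. The IFN-γ samples were spread widely, so its change of 0.68 had an SE of 0.21, and the call was lost in 5 of 6 fits that each left out a sample (highest adjusted p = 0.146 in limma). It was called in 2 of the 5 scalings and was 0.16 with the length trend removed and the sample medians kept. CENPN, which recognises CENPA nucleosomes, had 33.7, 34.6 and 33.2 FPKM with IFN-γ and 35.2, 40.6 and 36.4 FPKM with both, which did not overlap, but its change of 0.14 did not pass the test on the deposited values (adjusted p = 0.129). In the other 4 scalings CENPN was called higher, by 0.22 to 0.49, with adjusted p-values of 0.00670 to 0.0344. The 9 genes not called were CENPB, CENPH, CENPK, CENPM, CENPN, CENPP, CENPQ, CENPT and CENPA. On the deposited values they ranged in change from -0.17 to 0.14. With the length trend removed, CENPM was called lower, at -0.36 with summed FPKM kept and -0.63 with the sample medians kept. CENPH was called lower with the medians kept (-0.38) and higher after median-ratio scaling (0.20). CENPT was called higher in 3 scalings and CENPB in 2, by 0.20 to 0.28. CENPK, CENPP and CENPQ were not called in any. Leaving out each of the 6 samples in turn gave 18 to 25 lower and 1 to 3 higher genes of the 41. The shares of all genes in these fits are not given here. The calls of AURKA, BUB3, CDCA5, CENPI, CENPO, CENPW and CKS2 were lost in at least 1 of these fits.

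**Figure D2:**
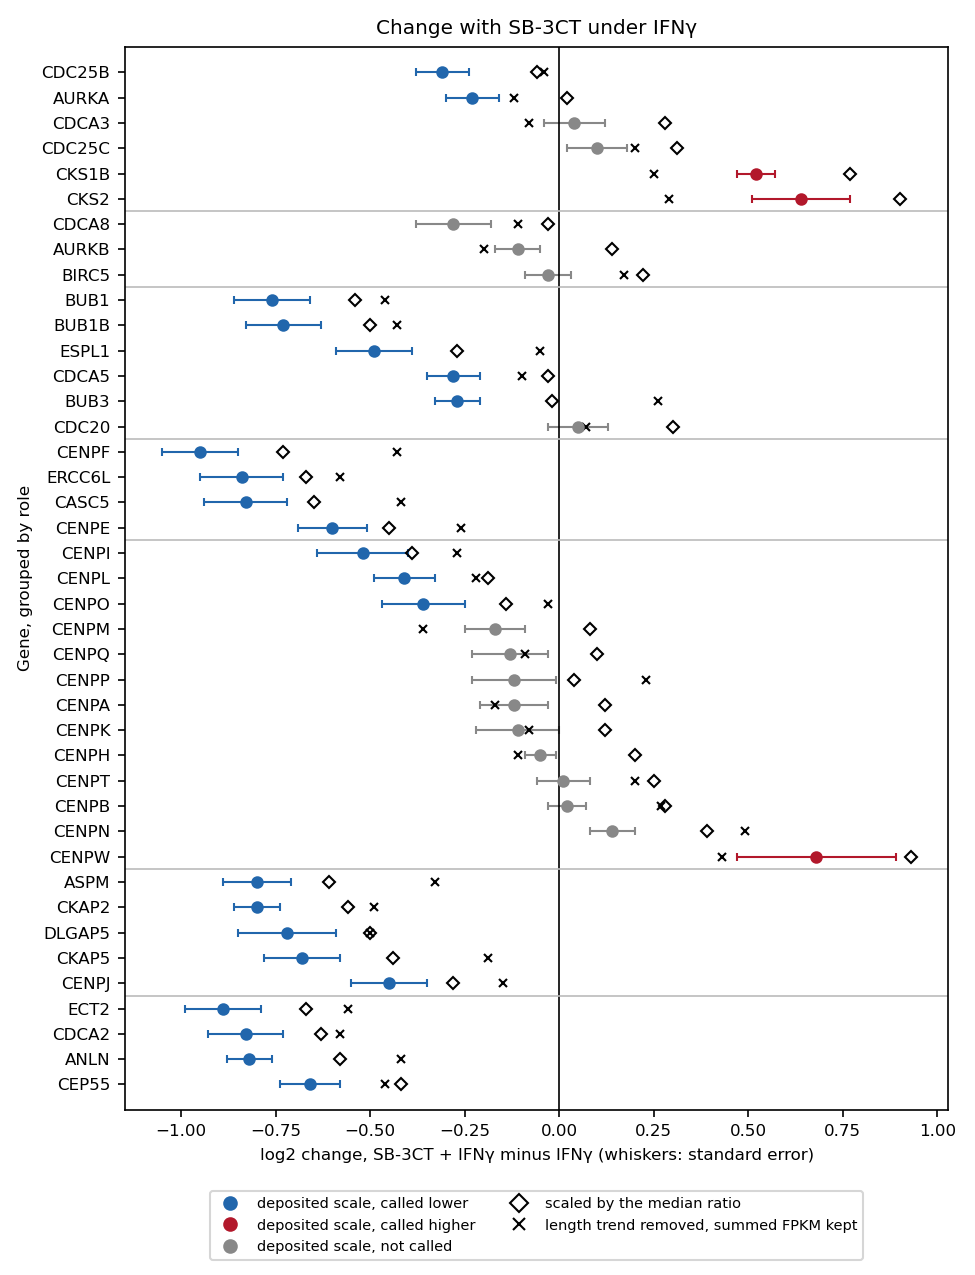
Points show the log2 change with SB-3CT and IFN-γ against IFN-γ alone for the 41 genes by role, with standard errors (n = 3 samples per group), and open diamonds and crosses the same change after median-ratio scaling and after removal of the length trend at constant summed FPKM. The cytokinesis, spindle and outer kinetochore genes stay left of 0 under all 3, whereas AURKA, BUB3 and several inner centromere genes cross it.

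These genes also divided by transcript length. Of the 11 with a canonical transcript under 2000 bases, none was lower and 3 were higher (CKS1B, CKS2 and CENPW), with a median change of -0.05. Of 16 between 2000 and 4000 bases, 10 were lower, and of 14 with 4000 bases or more, 13 were lower, CENPP being the exception, with medians of -0.29 and -0.64. All genes whose mean FPKM reached 1 followed the same order, with 10.2%, 42.9% and 68.3% lower and medians of 0.06, -0.21 and -0.39 in the 3 classes. Across genes, the change and log2 transcript length correlated at r = -0.74 (rho = -0.71, n = 41 genes) among the mitotic genes and r = -0.60 (rho = -0.61, n = 3153 genes) among all, as a description over genes that share the same samples. Among the genes of the longest class, those of mitosis had the lower median, but lengths were not matched within this open-ended class. Of the 41 genes, 12 were called lower in all 5 scalings, those with the length trend removed included. The share of all genes called lower in all 5 is not given here, so the 12 are not set against it. They were ANLN, ASPM, BUB1, BUB1B, CASC5, CDCA2, CENPF, CEP55, CKAP2, DLGAP5, ECT2 and ERCC6L. No gene was called higher in all 5. The annotated length need not be that of the transcript these cells use. Role and length also overlapped. The outer kinetochore genes had 4218 (ERCC6L) to 10290 bases (CENPF). In the inner centromere, CENPA, CENPH, CENPK, CENPM, CENPQ and CENPW were under 2000 bases, but CENPO, CENPI and CENPP had 4106 to 8293. The differences between roles were not separated from length.

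**Figure D3:**
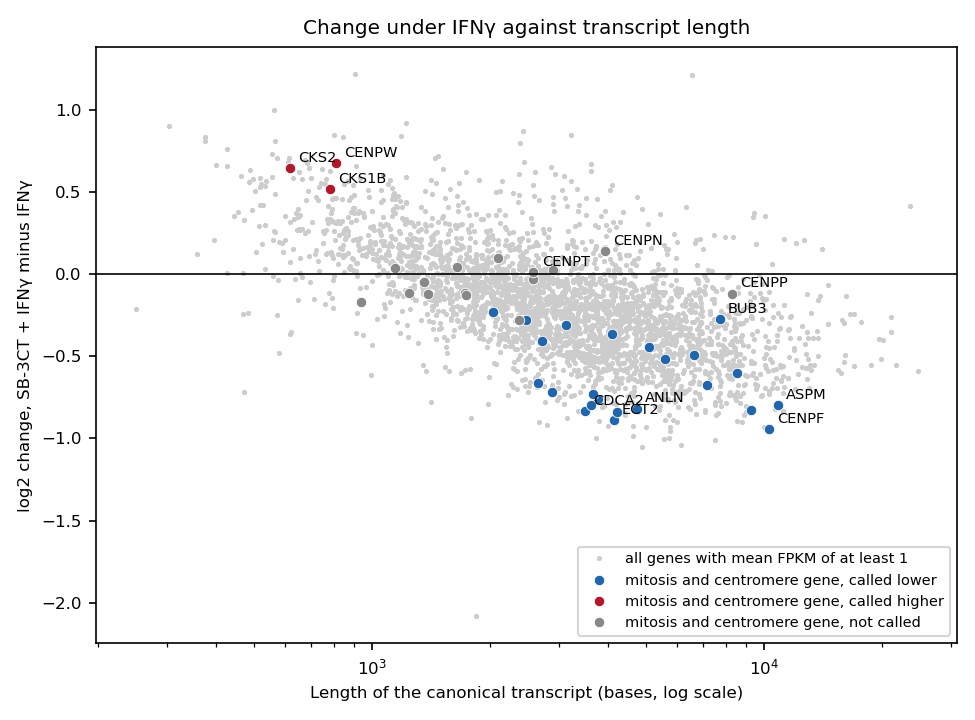
The log2 change with SB-3CT and IFN-γ against IFN-γ alone is plotted against the length of the canonical transcript on a log axis, with genes of mean FPKM at least 1 in grey and the 41 mitosis and centromere genes coloured by call. Both fall with length (r = -0.60 and -0.74), the 3 higher genes lie at the short end, and many of the lower genes lie toward the lower edge of the grey cloud at their length.

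SB-3CT without IFN-γ changed fewer of the 41 genes. Compared with control, 4 were lower and 6 higher, where 6.87% of all genes were lower and 5.37% higher. Among the 3029 genes in the same range of FPKM the shares were 9.61% and 7.89%, and among the 41 they were 9.76% and 14.6%. The lower 4 were ANLN, CKAP2, ECT2 and ASPM, of the spindle and cytokinesis. The higher 6 were CENPT, CDC20, CENPB, BIRC5, CKS1B and CDC25B. ANLN had 27.0, 25.9 and 25.7 FPKM in the controls and 21.2, 16.2 and 16.9 FPKM with SB-3CT, a change of -0.52 (SE 0.10, adjusted p = 0.0214 in limma). ECT2 had 11.6, 10.9 and 11.5 FPKM in the controls and 9.29, 7.10 and 7.47 FPKM with SB-3CT, a change of -0.47 (SE 0.09). CKAP2 changed by -0.49 and ASPM by -0.46. In these 4 genes no treated sample reached the controls, and SB-3CT replicate 1 lay closest to the controls.

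The rises with SB-3CT alone were small. CDC20 had 115, 111 and 115 FPKM in the controls and 138, 146 and 142 FPKM with SB-3CT. The groups were separate and tight, with a change of 0.32 (SE 0.04, adjusted p = 0.00665). CENPT (chromosome 16, 67862060 to 67881714), which links CENPA chromatin to the microtubule-binding outer kinetochore, had 10.7, 10.4 and 10.4 FPKM in the controls and 13.8, 15.1 and 13.9 FPKM with SB-3CT, a change of 0.41 (SE 0.05, adjusted p = 0.00822). Its mean was 10.3 FPKM with IFN-γ and 10.3 FPKM with both agents. CENPT overlaps genes on the opposite strand, and whether the counting used strand is not given in the sources used here. The limit is wider than CENPT, since 11 of the 41 genes overlap another protein-coding gene. BUB1B overlaps PAK6 on its own strand. BIRC5 rose from 42.8, 44.2 and 41.3 FPKM to 47.5, 53.0 and 50.1 FPKM, a change of 0.22 (SE 0.05), and CENPB, which binds alpha-satellite DNA, by 0.24, CKS1B by 0.20 and CDC25B by 0.20.

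CDC20 and CENPT were higher, and ANLN, CKAP2 and ECT2 lower, in all 5 scalings, over which 3 or 4 of the 41 genes were lower and 3 to 7 higher. Over the same scalings, 6.47% to 7.63% of all genes were lower and 4.74% to 8.13% higher. ASPM was called in 2 of the 5. When each of the 6 samples was left out in turn, the falls stayed of similar size, between -0.63 and -0.45 for ANLN, -0.57 and -0.40 for ECT2, -0.61 and -0.38 for CKAP2, and -0.54 and -0.35 for ASPM. With the fewer samples each of the 4 calls was lost in 5 of the 6 fits, with adjusted p-values of up to 0.0996 for ANLN, 0.110 for ECT2, 0.129 for CKAP2 and 0.15 for ASPM. Without SB-3CT replicate 1 all 4 falls were at their largest and 12 of the 41 genes were called lower. The share of all genes called lower in that fit is not given here, so the 12 are not set against it. Of the 6 rises, CENPT was lost in 1 of 6 such fits (highest adjusted p = 0.0526), CDC20 in none, and the other 4 in at least 5. The slope on transcript length was 0.061 in SB-3CT replicate 1 and -0.048 and -0.019 in replicates 2 and 3. The part of that difference in the falls was not tested beyond the scalings above.

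With IFN-γ alone, limma called 0 of the 41 genes lower than control, where 11.0% of all genes were lower. At an unadjusted p-value under 0.05 it gave 1 lower gene, and the per-gene equal-variance test with adjustment gave 0. The shares of all genes at those settings are not given here. IFN-γ raised 5 of the 41, where 8.46% of all genes were higher. Median-ratio scaling made this 15, where 12.1% of all genes were higher, quantile normalization 9 (10.3%), and each scaling that removed the length trend 6 (9.68% and 8.72%). In the same range of FPKM, 14.9% of genes were lower and 10.8% higher on the deposited values. CENPH, a subunit of the centromere network, had 32.3, 33.8 and 31.3 FPKM in the controls and 42.3, 43.6 and 43.1 FPKM with IFN-γ, a change of 0.40 (SE 0.04, adjusted p = 0.00183). It stood at 41.5, 41.5 and 41.6 FPKM with both agents, so the 6 samples with IFN-γ were all above the 6 without it. CDCA2 had 3.85, 4.8 and 4.88 FPKM in the controls and 7.41, 6.02 and 7.02 FPKM with IFN-γ, a change of 0.51 (SE 0.11, adjusted p = 0.0228). ESPL1 rose by 0.39, CKS1B by 0.22 and CDCA5 by 0.20. The 5 genes were higher in all 5 scalings, but CENPH alone kept its call in every fit that left out a sample. Without IFN-γ replicate 2 the number of higher genes was 10. The share of all genes called higher in that fit is not given here, so the 10 are not set against it. IFN-γ replicate 2 had the lowest scaling factor and the lowest slope on transcript length of the 3 (0.987 and 0.034).

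Set against the controls, cells given both agents had 20 of the 41 genes lower and 6 higher, where 40.0% of all genes were lower and 9.84% higher. Among the 3029 genes in the same range of FPKM, 53.4% were lower, a share above the 48.8% of the mitotic genes. ECT2 fell by 0.88, CKAP2 by 0.77 and ANLN by 0.74, and CKS1B rose by 0.74 (SE 0.03, adjusted p = 4.67e-05), CKS2 by 0.64, CENPH by 0.35, CENPN by 0.22, CENPW by 0.16 and CENPB by 0.15. With the length trend removed and the sample medians kept, CKS2 changed by 0.08, CENPH by 0.05 and CENPB by 0.12, which were not called, and CENPW was lower (-0.30, adjusted p = 0.0173). When a sample was left out, CENPN lost its call in 4 of 6 fits, CENPW in 5 and CENPB in 6, with adjusted p-values of up to 0.139. The comparison shares its treated samples with the one against IFN-γ. After scaling by the median ratio, 14 were lower and 15 higher, where 19.3% and 21.8% of all genes were, and AURKA, at -0.16 on the deposited scale, was at 0.14 (adjusted p = 0.00800). With the length trend removed, 11 were lower and 8 higher at constant summed FPKM (23.2% and 14.1% of all genes), and 26 lower and 2 higher with the sample medians kept (45.2% and 6.75%). CKS1B and CENPN were higher and 10 genes lower in all 5 scalings. For this and the other comparisons, the share of all genes called in all 5 is not given here.

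**Figure D4:**
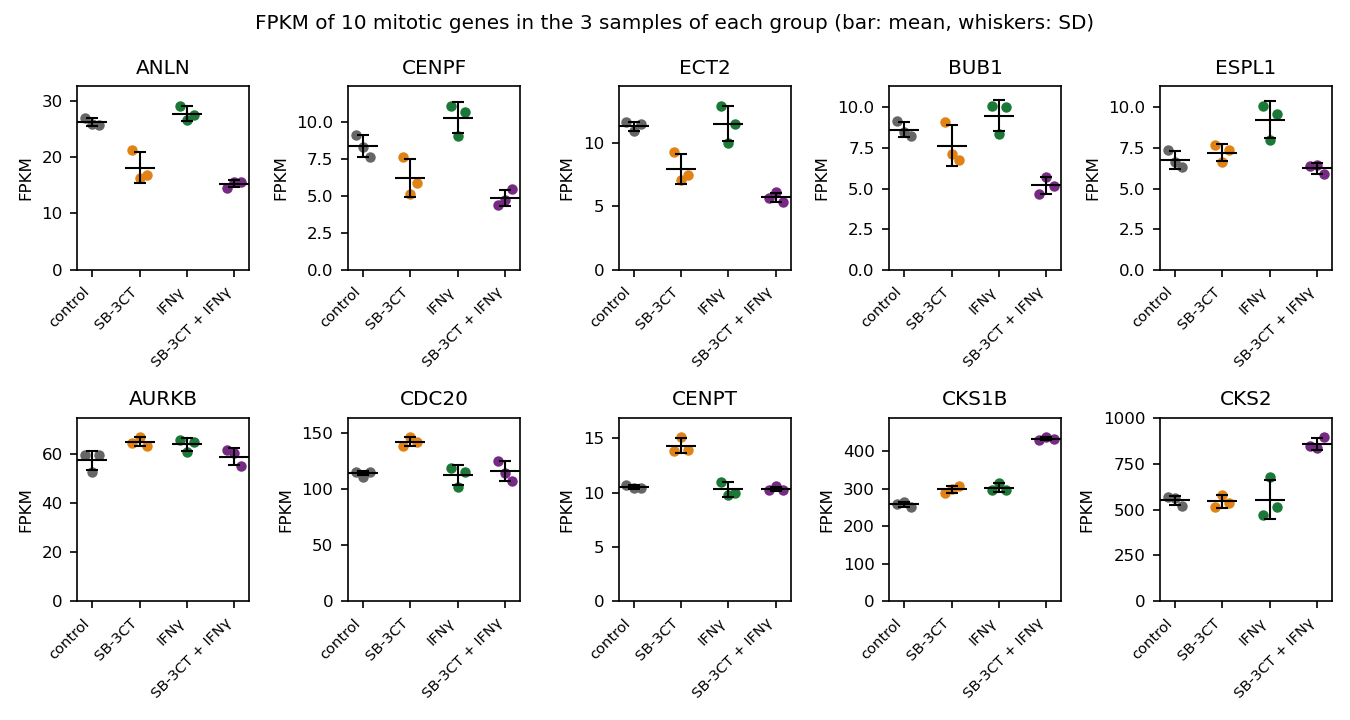
FPKM of 10 genes in each sample of the 4 groups, with the mean and SD (n = 3 samples), on axes that start at 0. ANLN, CENPF, ECT2 and BUB1 are lowest with SB-3CT and IFN-γ, CKS1B and CKS2 are highest there, and CDC20 and CENPT are highest with SB-3CT alone.

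Whether SB-3CT changed these genes by a different amount under IFN-γ was tested directly, over all 12 samples. The difference is the change under IFN-γ minus the change without it. It was called below 0 for 14 of the 41 genes and above 0 for 2 (CKS1B and CKS2). Of all genes, 17.6% were called below and 4.74% above. Among genes in the same range of FPKM, 26.2% were called below and 6.73% above. By sign alone, 34 of the 41 differences were below 0 and 7 above, and 3374 of all 4918 genes were below 0. BUB1B changed by -0.10 with SB-3CT alone and by -0.73 under IFN-γ, a difference of -0.63 (SE 0.13, adjusted p = 0.00870 in limma). CDC25B changed by 0.20 and by -0.31, a difference of -0.51 (SE 0.08, adjusted p = 0.00541), and these 2 were called in all 5 scalings. CKS2 changed by -0.02 and by 0.64, a difference of 0.66 (SE 0.15, adjusted p = 0.0136), which was 0.11 with the length trend removed and the sample medians kept. For ANLN, ECT2, ASPM and CKAP2, the genes that fell in both settings, the difference did not pass the test, with values of -0.30, -0.42, -0.34 and -0.31. The 2 SB-3CT changes share no samples. Across the 41 genes they correlated at r = 0.66 (rho = 0.71), and at r = 0.45 (rho = 0.47) across the 3177 genes whose mean FPKM reached 1, with 23 of the 41 below 0 in both and 8 above 0 in both. Both changes also correlated with transcript length among the 41 genes, at r = -0.46 without IFN-γ and -0.74 with it. After scaling by the median ratio, 4 differences were called below 0 and 3 above. Of all genes, 5.23% and 7.81% were, so the share above was near that of all genes. Quantile normalization gave 5 below and 2 above (7.02% and 6.0%), and removal of the length trend gave 5 and 1 at constant summed FPKM (3.72% and 4.86%) but 21 and 0 with the sample medians kept (20.5% and 2.24%).

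**Figure D5:**
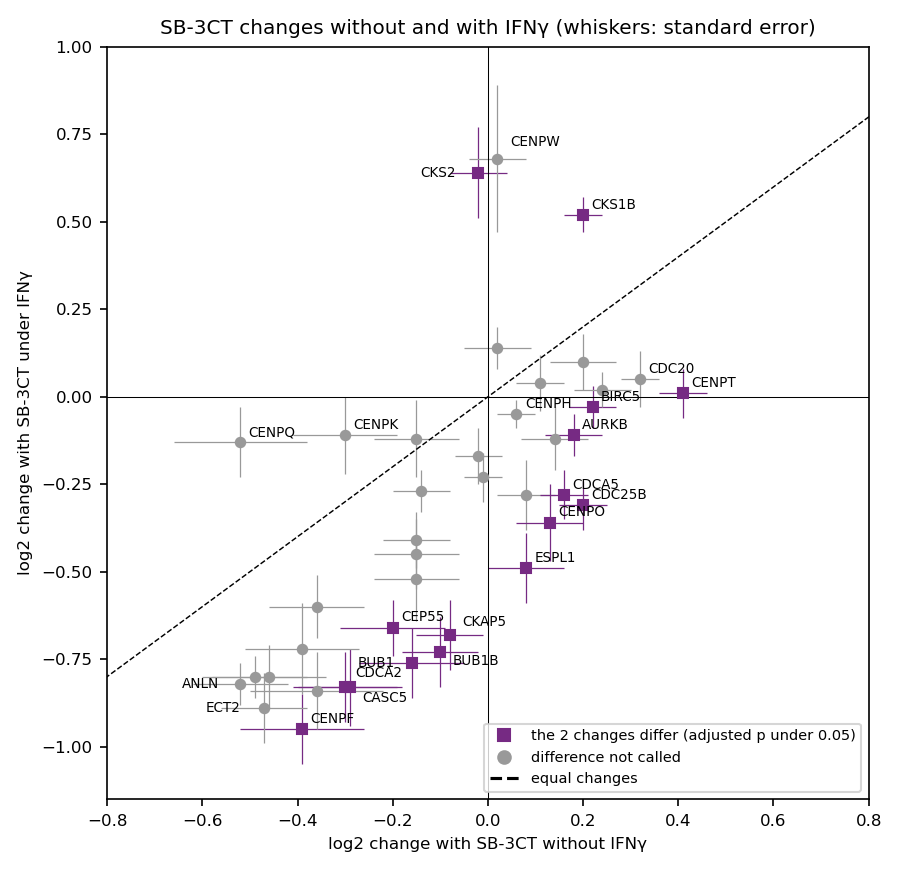
Each point is a gene, with the log2 change with SB-3CT against control on the x axis and the change with SB-3CT and IFN-γ against IFN-γ on the y axis (whiskers, standard errors; n = 3 samples per group). Purple squares mark the 16 genes whose changes differ, 14 of them below the dashed line of equal changes and CKS1B and CKS2 above it.

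Other genes of the same machinery, from lists written by hand, were read in the comparison of both agents with IFN-γ alone, where 42.7% of the genes whose mean FPKM reached 1 were lower and 9.22% higher, with a median change of -0.20. Of 6 genes for mitotic cyclins, CDK1 and a CDK phosphatase, CCNA2 (cyclin A2, at -0.56), CCNF (cyclin F, at -0.39) and CCNB2 (cyclin B2, at -0.30) were lower, and CCNB1 (cyclin B1, at 0.21) and CDKN3 (the phosphatase, at 0.25) were higher, and the median was -0.19. Of 14 subunits of the anaphase-promoting complex, the ubiquitin ligase that CDC20 activates, 6 were lower, CDC27 most (-0.72), and 3 higher, the small subunits CDC26 (0.45), ANAPC11 (0.37) and ANAPC16 (0.21). The 42.9% lower was close to the share among all such genes, and the median was -0.10. Of 20 further genes of the centrosome, spindle and cytokinesis, 14 (70.0%) were lower and none higher, with a median change of -0.51. Among them were ARHGAP11A, a RhoA regulator in cytokinesis, at -0.89 and CENPC, the CENPA-binding centromere protein, at -0.66. Of all genes whose mean FPKM reached 1 and whose transcripts had 4000 bases or more, 68.3% were lower. All these lists were read on the deposited values alone, and the transcript lengths of their genes were not compared. Of 21 genes of the G1/S transition and DNA replication, 18 (85.7%) were lower and none higher, with a median of -0.48, led by ATAD2 (-1.0), CCNE2 (cyclin E2, -0.90) and CLSPN (claspin, -0.90). The median of the 41 genes was -0.28, so the first 2 lists lay above it and the last 2 below it. With IFN-γ alone against control, 8 of the 21 replication genes (38.1%) were higher and none lower, CDT1 (0.50) and DTL (0.44) among them, where 11.0% of the genes whose mean FPKM reached 1 were higher and 14.6% lower.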

How the data were processed

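RNA from 12 A375 samples (3 per group) was measured. The submitters' processing notes name HISAT2 2.0.5, StringTie 1.3.3 and hg19. The authors' deposited values are FPKM on a log2 scale: they match log2(FPKM + 1) and reach 12.16 at most, so the step of taking logarithms that had been planned for FPKM was left out. FPKM was taken as 2 to the power of the value minus 1. The summed FPKM was 121928 to 129692 per sample, absolute depth is unknown, and 0 columns of per-sample values were unused. The tests used limma 3.58.1 (R 4.3.3; lmFit, eBayes with trend, no pairing), with 3 + 3 samples per comparison and all 12 for the difference of the SB-3CT changes, and p-values were adjusted over all 4918 genes. The fits were tested on simulated data. Replicate numbers did not pair the samples (correlations of deviations from -0.10 to 0.17). Positions and canonical transcript lengths came from GENCODE release 44 mapped to GRCh37, where 4458 symbols were found as they stand and 415 by an earlier name (CASC5 among them), and promoters from RefSeq (GRCh38.p14). The scalings were the deposited one, median ratio, quantile normalization, and removal of each sample's loess trend with length (span 0.75), with its summed FPKM or its median kept. The other alternatives were a filter of mean FPKM 1, a pseudocount of 0.1, all 4 groups in a common fit, a replicate block, leave-one-out, eBayes with no trend or robust, and a per-gene equal-variance test. The genes called are named in each comparison, except in both agents against control, where the lower genes are named only in part. Per-sample values were set for the 4 largest falls and rises with both agents and for named regulators. Those of ANLN, ASPM, CASC5, CENPH and CENPT were added after the values were seen. The genes, roles and lists were chosen with earlier results of these data known.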

Additional observations from a re-analysis of the deposited data

Results flagged for a closer look

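The SB-3CT change differed with and without IFN-γ, by the test of the difference over all 12 samples, for 16 of the 41 genes. On the log2 scale the difference (change with IFN-γ minus change without) was -0.63 for BUB1B, -0.60 for CKAP5, -0.59 for BUB1, -0.57 for ESPL1, -0.56 for CENPF, -0.54 for CASC5, -0.53 for CDCA2, -0.51 for CDC25B, -0.49 for CENPO, -0.46 for CEP55, -0.44 for CDCA5, -0.40 for CENPT, -0.29 for AURKB and -0.26 for BIRC5. It was 0.31 for CKS1B and 0.66 for CKS2. Adjusted p-values in limma ran from 0.00541 (CDC25B) to 0.0463 (BIRC5). The calls of CENPF, CASC5, CDCA2, CENPO, CEP55, AURKB and BIRC5 were lost in 5 to 9 of the 12 fits that each left out a sample. Of the 16, BUB1B and CDC25B were called in all 5 scalings, and the cause of the other losses was not tested.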

How the results depend on the processing

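Counts are given as lower and higher of the 41 genes, and shares of all genes are not set beside them. For the FPKM filter, the equal-variance test, the replicate block and eBayes with no trend, these shares are not given here. The filter also adjusts p-values over fewer genes. Both agents against IFN-γ gave 23 and 3, 13 and 5 with the length trend removed and summed FPKM kept, 11 higher after median-ratio scaling, 5 after quantile normalization, and 1 with the length trend removed and median kept and by the per-gene equal-variance test. SB-3CT against control gave 4 and 6, with 11 lower after a filter of mean FPKM at least 1, 0 lower and 2 higher by the equal-variance test, 3 higher after quantile normalization and 2 with the replicate block. IFN-γ against control gave 0 and 5, with 1 lower after quantile normalization, the FPKM filter and eBayes with no trend, and 15 higher after median-ratio scaling, 9 after quantile normalization, 8 after the filter and 3 by the equal-variance test. Both agents against control gave 20 and 6, with 11 lower with the length trend removed and summed FPKM kept, and 15 higher after median-ratio scaling, 2 with the length trend removed and median kept, and 3 by the equal-variance test. The difference of the SB-3CT changes gave 14 and 2, with 4 lower after median-ratio scaling, 5 after quantile normalization, 5 lower and 1 higher with the length trend removed and summed FPKM kept, and 0 higher with the median kept. Elsewhere the replicate block gave 22 and 3, 4 lower, 0 and 5, 19 and 4, and 14 and 2, with no other count moved by more than 1.5 times. Where replicate numbers are only names, these blocked values are not a paired test.

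Leaving out each sample in turn gave 18 to 25 lower and 1 to 3 higher for both agents against IFN-γ. For SB-3CT it gave 0 to 12 and 1 to 5, and for IFN-γ 0 to 1 and 1 to 10. Both against control gave 17 to 20 and 3 to 5, and the difference 7 to 20 and 2 to 3. The shares of all genes in these fits are not given here.

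Of 83 called changes, 27 kept direction and call in all alternatives, 47 lost the call in at least 1, and 9 reversed. With median-ratio scaling AURKA reversed to 0.02 against IFN-γ and 0.14 against control, and BUB3 to 0.01 and CDC25B to 0.09 against control. With quantile normalization CENPJ reversed to 0.04 against control. With the length trend removed and summed FPKM kept, BUB3 reversed to 0.26 against IFN-γ and 0.16 against control, and against control CENPJ to 0.02, CDC25B to 0.03 and CENPW to -0.05. With the median kept, CENPW reversed to -0.30 against control, and CKS1B to -0.02 against IFN-γ and -0.15 in the difference. Some alternatives also used fewer samples or genes, and the cause of the lost calls and reversals was not tested.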
